A study of Mus musculus with 20 samples.

Results

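The data on the cyclin-dependent kinase (CDK) inhibitors cover 7 of the 43280 genes in the count tables. They were chosen by symbol as the members of both inhibitor families: *Cdkn2a*, *Cdkn2b*, *Cdkn2c* and *Cdkn2d* of the INK4 family, and *Cdkn1a*, *Cdkn1b* and *Cdkn1c* of the CIP/KIP family. The series compared mesenchymal cells of the mouse gut with and without *Eed*, a core subunit of Polycomb Repressive Complex 2 (PRC2). RNA-seq covered 12 libraries in 6 groups of 2, and ATAC-seq gave 1 list of accessible regions for each of the 4 embryonic groups. Embryonic control cells were GFP+ cells sorted at E13.5 from *Bapx1*-cre;*Rosa26*mTmG embryos, and embryonic *Eed* KO cells were sorted in the same way from *Eed*fl/fl;*Bapx1*-cre;*Rosa26*mTmG embryos, separately for the stomach and the intestine. In both genotypes the GFP reporter marks cells in which Cre under *Bapx1* (*Nkx3-2*) has been active, so all embryonic groups carry the Cre and the reporter.

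Adult libraries are labelled as intestinal mesenchyme, WT or EED-KO. According to the methods they came from GFP+ cells of the small intestine of mice of about 10 weeks with *Pdgfrβ* Cre-ERT2/+ and *Rosa26*mTmG, either with or without *Eed*fl/fl. Mice received tamoxifen at 100 mg/kg per day for 5 days and were dissected 2 days after the last dose. The labels do not tie libraries to animals, but the study describes its sequencing replicates as biological. With 2 libraries a group, a p-value rests on the spread between those libraries.

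CDK inhibitors bind cyclin-CDK complexes and slow or stop entry into the cell cycle. INK4 proteins bind CDK4 and CDK6 and keep them from the D-type cyclins, whereas CIP/KIP proteins act on a wider range of cyclin-CDK complexes. *Cdkn2a* and *Cdkn2b* lie side by side, are silenced by Polycomb in many dividing cells, and rise in senescence. *Cdkn2a* encodes both p16Ink4a, an INK4 protein, and p19Arf, which comes from another first exon in another reading frame and stabilizes p53.

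Gene counts ranged from 30236159 to 39606157 in the embryonic and from 11404712 to 15903642 in the adult libraries. *Eed* was lower in both embryonic KO groups, at 10.7 and 8.59 CPM (counts scaled to library size with TMM) in the KO intestine against 38.1 and 40.1 in the control intestine, and at 11.5 and 7.40 in the KO stomach against 40.1 and 41.5. In the adult libraries *Eed* was at 25.7 and 25.05 CPM in those labelled KO and at 29.7 and 33.4 in the controls (log2 fold change -0.32, SE 0.21, adjusted p = 0.317, edgeR quasi-likelihood test with Benjamini-Hochberg adjustment), so the target gene does not check the adult labels. The study separately reported how efficiently *Eed* was deleted in isolated pericryptal cells, a value that is not given here. Summed CPM of 9 mesenchyme markers was 13465 to 24757 in the embryonic libraries, 11411 to 11916 in the adult controls and 3487 to 4987 in the adult KO. Macrophage and leukocyte markers (8 of the 9 listed were found in the tables) summed to 5.51 to 13.4 CPM in the embryonic libraries, with *Ptprc* at 0 counts in both stomach groups, to 706 to 916 in the adult controls and to 18504 to 18801 in the adult KO, where 8 of 8 were higher. The list of B and T cell markers, which includes *Cd74*, summed to 0.204 to 0.884 CPM in the embryo, 2168 to 2886 in the adult controls and 77829 to 90831 in the adult KO. Its members did not move together in the adult, where 2 of 6 were called higher and 1 lower (median log2 fold change 0.57). The sum therefore does not stand for the whole list and is not a measure of B and T cells. Endothelial markers summed to 14.4 to 19.4 CPM in the embryonic controls and 24.3 to 45.8 in the embryonic KO, with 2 of 6 higher in the intestine and 4 of 6 in the stomach. Whether these other cells account for any change of an inhibitor was not tested, and in bulk RNA fewer cells of a type and less RNA per cell cannot be told apart.

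Promoters of the 4 inhibitors that changed in the embryo, except the second, downstream start of *Cdkn2c*, are shown because accessible regions were read at their starts. Each sequence, from RefSeq on GRCm38.p6, runs 5′ to 3′ on the gene's strand from 250 bases before the start to 50 bases after it, and 6 of the 7 genes had an entry, all but *Cdkn1c*. Capitals mark GC boxes (GGGCGG on either strand), CCAAT boxes (with the letters CCAAT on either strand) and TATA boxes (with TATAAA on either strand). They also mark E2F sites, read as TTTCCCG on either strand and in the spellings TTTCGCG with a central G, TTTGCCG with a G after the T run, and TTTGGCG with a G at both places. The p53 element, searched by its consensus of a pair of adjoining half-sites with at most 1 mismatch outside their fixed C and G, is in capitals too.
Cdkn2a, p19Arf start, chr4:89294570-89294869, minus strand: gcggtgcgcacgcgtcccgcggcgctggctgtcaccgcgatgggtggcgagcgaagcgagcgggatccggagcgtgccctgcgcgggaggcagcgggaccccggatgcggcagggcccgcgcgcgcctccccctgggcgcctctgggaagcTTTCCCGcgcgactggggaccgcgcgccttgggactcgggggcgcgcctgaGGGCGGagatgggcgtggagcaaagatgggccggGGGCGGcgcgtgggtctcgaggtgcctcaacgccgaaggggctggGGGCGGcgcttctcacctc
Cdkn2a, p16Ink4a start, chr4:89282143-89282442, minus strand: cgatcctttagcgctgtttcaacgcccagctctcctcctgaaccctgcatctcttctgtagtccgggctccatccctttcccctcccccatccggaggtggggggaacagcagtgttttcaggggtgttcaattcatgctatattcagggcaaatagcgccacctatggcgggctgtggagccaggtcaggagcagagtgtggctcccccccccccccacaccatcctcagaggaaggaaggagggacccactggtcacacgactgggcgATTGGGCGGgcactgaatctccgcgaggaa
Cdkn2b, chr4:89310983-89311282, minus strand: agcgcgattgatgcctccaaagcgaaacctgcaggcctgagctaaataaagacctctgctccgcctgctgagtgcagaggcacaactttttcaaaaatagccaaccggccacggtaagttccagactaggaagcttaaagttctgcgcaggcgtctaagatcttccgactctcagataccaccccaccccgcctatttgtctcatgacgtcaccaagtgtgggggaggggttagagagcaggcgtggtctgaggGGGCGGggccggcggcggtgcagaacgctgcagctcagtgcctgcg
Cdkn2c, upstream start, chr4:109666707-109667006, minus strand: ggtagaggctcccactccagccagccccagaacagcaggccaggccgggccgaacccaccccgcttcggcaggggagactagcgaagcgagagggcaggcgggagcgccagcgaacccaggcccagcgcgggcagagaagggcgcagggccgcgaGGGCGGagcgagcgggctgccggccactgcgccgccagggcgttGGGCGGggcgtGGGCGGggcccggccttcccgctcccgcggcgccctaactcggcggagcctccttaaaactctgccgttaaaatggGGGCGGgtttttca
Cdkn1a, upstream start, chr17:29090729-29091028, plus strand: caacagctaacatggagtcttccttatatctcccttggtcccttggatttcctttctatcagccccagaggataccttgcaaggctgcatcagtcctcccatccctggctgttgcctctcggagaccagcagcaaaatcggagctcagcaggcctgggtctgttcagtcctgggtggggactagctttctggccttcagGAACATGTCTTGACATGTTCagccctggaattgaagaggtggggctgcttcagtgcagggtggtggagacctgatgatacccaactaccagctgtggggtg
Cdkn1a, downstream start, chr17:29093519-29093818, plus strand: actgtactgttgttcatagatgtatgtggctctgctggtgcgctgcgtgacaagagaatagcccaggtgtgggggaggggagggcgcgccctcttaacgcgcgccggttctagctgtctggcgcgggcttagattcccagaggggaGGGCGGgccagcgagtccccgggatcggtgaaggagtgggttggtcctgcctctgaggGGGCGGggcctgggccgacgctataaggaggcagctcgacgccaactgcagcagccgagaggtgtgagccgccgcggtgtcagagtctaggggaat

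These windows differed in base composition. The p19Arf promoter was 77.0% GC with 45 CpG dinucleotides and the upstream *Cdkn2c* promoter 73.3% with 33, against medians of 52.7% and 7 over 32851 promoters. The p16Ink4a and *Cdkn2b* promoters had 12 and 18 CpG, and the upstream *Cdkn1a* promoter had only 2. GC boxes stood in all of the printed windows except the upstream *Cdkn1a* one, and in 35.7% of all promoters. Among the printed windows an E2F site occurred only in that of p19Arf (6.70% of all promoters) and a CCAAT box only in that of p16Ink4a (37.4% of all promoters), on the opposite strand and overlapping a GC box. The downstream *Cdkn2c* window, which is not printed, held both an E2F site and a CCAAT box and no GC box. No TATA box occurred in a printed window, against 13.6% of all promoters. The upstream *Cdkn1a* window held a p53 element 51 to 32 bases before the start, which 0.0670% of all promoters held. The search for the p53 element was added after the p53 list below had been seen.

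In the E13.5 intestine, loss of *Eed* came with higher levels of 4 of the 7 inhibitors, past both an adjusted p of 0.05 and a 2-fold change, and of 2.38% of all 16218 genes tested (edgeR quasi-likelihood test, Benjamini-Hochberg adjustment). None was lower by this rule, as were 0.228% of all genes. Higher members were *Cdkn2a*, *Cdkn2b* and *Cdkn2c* of the INK4 family and *Cdkn1a* of the CIP/KIP family. The same 4 were higher in the E13.5 stomach, where 4.84% of all genes were called higher and 0.808% lower. The median log2 fold change of the 7 was 1.55 in the intestine and 1.68 in the stomach, against 0.01 and 0.00 for all genes.

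*Cdkn2a* (chr4:89274471-89294653, minus strand, mm10) was close to silent in every embryonic control library. The control intestine libraries had 1 and 0 counts, and the control stomach libraries 2 and 0. It had 392 and 553 counts in the KO intestine (10.3 and 15.8 CPM) and 1357 and 1456 in the KO stomach (36.4 and 39.9 CPM). Every KO library was far above every control library. Summed over each group and scaled for library size, the ratio was 846 in the intestine (exact 95% counting interval 151 to 33449) and 1406 in the stomach (389 to 11617), with adjusted p of 8.65e-04 and 1.64e-04 in the edgeR fit across all genes. These intervals and those below cover counting error only.

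The gene count does not separate p16Ink4a from p19Arf. Exons shared by both transcripts make up 645 of the 1172 bases counted (55%), the first exon of p19Arf 320 and that of p16Ink4a 207. No stretch of 50 bases is shared between transcripts of any pair of the 7 genes, and the longest shared run was 23 bases, between *Cdkn2a* and *Cdkn2b* and between *Cdkn1a* and *Cdkn1b*. None of the 7 genes overlaps another gene in the counted annotation.

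*Cdkn2b* (chr4:89306289-89311032, minus strand), which encodes p15Ink4b, followed the same pattern at lower counts. In the intestine it had 0 and 2 counts in the controls against 44 and 76 in the KO. In the stomach it had 1 and 8 counts in the controls and 116 and 156 in the KO. KO and control libraries did not overlap in either organ. The count ratio was 53.7 in the intestine (exact 95% counting interval 14.5 to 449; edgeR adjusted p = 0.0228) and 30.2 in the stomach (15.7 to 66.8; adjusted p = 0.00719).

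*Cdkn2c* (chr4:109660876-109667189, minus strand), which encodes p18Ink4c, was already expressed in controls and rose by a smaller factor. It was at 9.22 and 12.96 CPM in the control intestine, against 25.5 and 39.4 in the KO intestine. The control stomach had 9.74 and 14.3 CPM and the KO stomach 41.1 and 51.8. Both KO groups were above all control libraries. The log2 fold change was 1.55 (SE 0.29, edgeR adjusted p = 0.0345) in the intestine and 1.95 (SE 0.29, adjusted p = 0.00835) in the stomach.

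*Cdkn2d* (chr9:21288463-21291209, minus strand), which encodes p19Ink4d, did not pass the test in either organ. It was at 16.6 and 18.0 CPM in the control intestine, against 13.1 and 15.3 in the KO intestine. The control stomach had 15.7 and 16.8 CPM and the KO stomach 15.1 and 14.2. KO libraries were slightly below controls without overlap, with log2 fold changes of -0.29 (SE 0.13, edgeR adjusted p = 0.392) and -0.15 (SE 0.13, adjusted p = 0.539).

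*Cdkn1a* (chr17:29090979-29100722, plus strand), which encodes p21 and is a classical target of p53, was the CIP/KIP member that rose. It was at 1.66 and 1.08 CPM in the control intestine, against 4.62 and 7.70 in the KO intestine. In the stomach it was at 3.01 and 3.98 CPM in the controls and 9.76 and 12.6 in the KO. Within each organ both KO libraries exceeded both controls. The log2 fold change was 2.16 (SE 0.34, edgeR adjusted p = 0.0205) in the intestine and 1.68 (SE 0.31, adjusted p = 0.0196) in the stomach.

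*Cdkn1b* (chr6:134920401-134925513, plus strand), which encodes p27Kip1, overlapped between genotypes. It was at 56.2 and 58.9 CPM in the control intestine, 65.2 and 55.0 in the KO intestine, 57.8 and 52.8 in the control stomach and 66.6 and 53.4 in the KO stomach. The log2 fold change was 0.06 (SE 0.14, edgeR adjusted p = 0.935) and 0.12 (SE 0.14, adjusted p = 0.661).

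*Cdkn1c* (chr7:143458350-143461050, minus strand), an imprinted gene that encodes p57Kip2, was the most abundant member in the embryo. It was at 1303 and 1285 CPM in the control intestine, against 1495 and 1541 in the KO intestine. The control stomach had 1656 and 1657 CPM and the KO stomach 1593 and 1643. KO libraries lay above the controls in the intestine and below them in the stomach, by less than the test could separate from no change (log2 fold change 0.23, SE 0.09, edgeR adjusted p = 0.289, and -0.03, SE 0.09, adjusted p = 0.860).

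**Figure D1:**
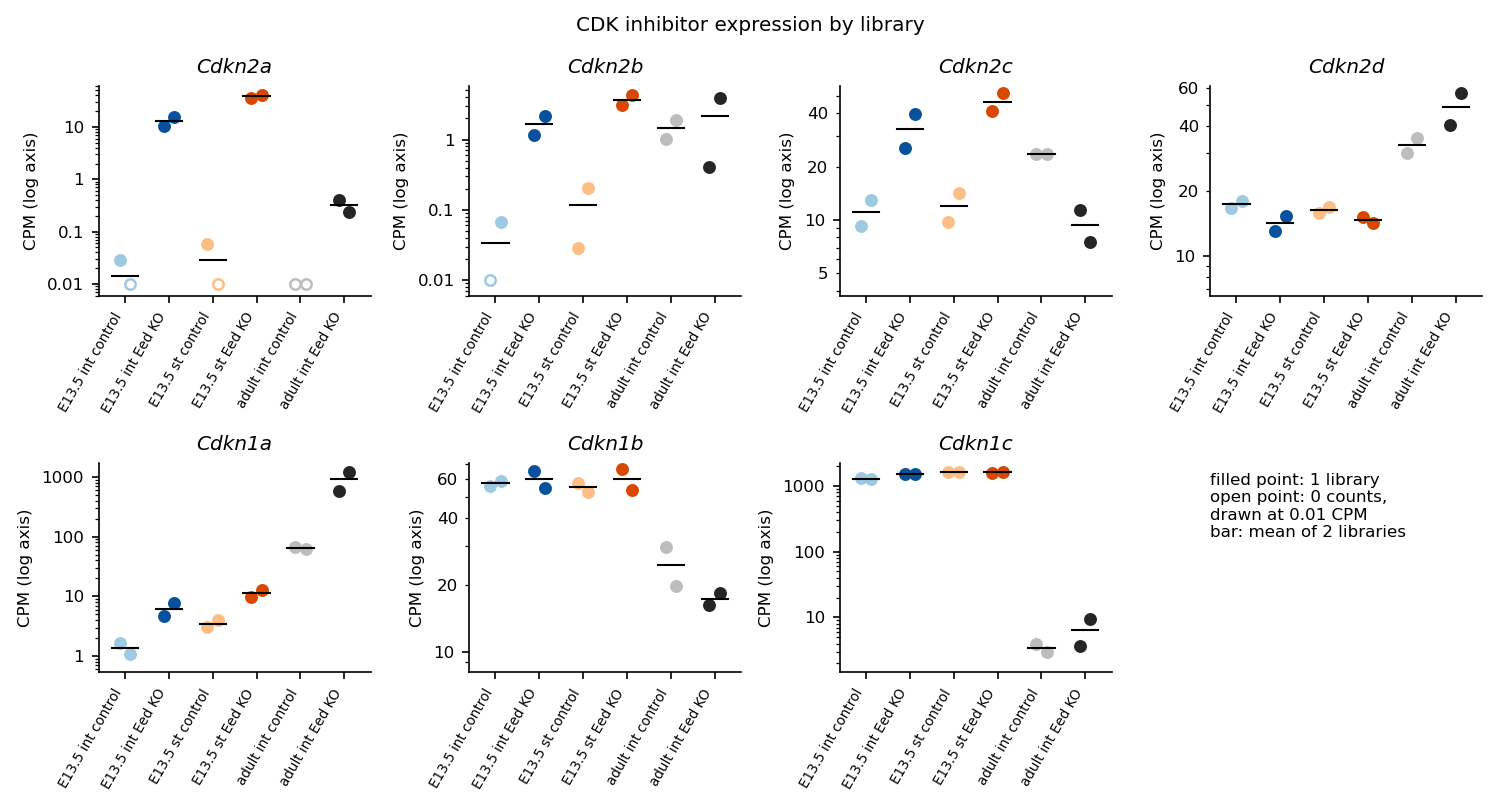
Expression of the 7 inhibitors in CPM on a log axis in each of the 12 libraries, by group, with the mean as a bar and libraries with 0 counts as open points at 0.01 CPM. In the embryo *Cdkn2a*, *Cdkn2b*, *Cdkn2c* and *Cdkn1a* are higher in every KO library than in the controls of the same organ, and *Cdkn1b* overlaps between genotypes.

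Apart from *Cdkn2a* in both organs and *Cdkn2b* in the stomach, the calls were sensitive to the number of libraries. Without control intestine replicate 1 or 2, or KO intestine replicate 2, *Cdkn2a* alone passed in the intestine, and without control stomach replicate 1 only *Cdkn2a* and *Cdkn2b* passed in the stomach. The stomach call of *Cdkn1a* was also lost without KO stomach replicate 2 (adjusted p = 0.109) or control stomach replicate 2 (adjusted p = 0.0881), so it held in 1 of 4 such fits. With 1 factor estimated from the spike-in RNA as a covariate, *Cdkn2a* was the only member called in either organ, and the others kept their direction (*Cdkn2b* 4.63 and 3.67, *Cdkn2c* 0.90 and 1.14, *Cdkn1a* 1.30 and 0.59 on the log2 scale, adjusted p from 0.0831 to 0.372). Every control library was below every KO library on that factor.

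Compared per transcript length (TPM, counts scaled to transcript length and library size), *Cdkn1c* dominated the family in the embryo. It was at 2007 ± 25.4 TPM in the control intestine, 2386 ± 137 in the KO intestine, 2605 ± 6.07 in the control stomach and 2688 ± 135 in the KO stomach (mean ± SD, n = 2), which is 95.6%, 93.9%, 96.5% and 91.1% of the summed TPM of the 7 genes. In the control intestine *Cdkn2d* (40.8 ± 3.19 TPM) and *Cdkn1b* (37.9 ± 2.09) came next and lay close together, followed by *Cdkn2c* (12.4 ± 3.22), *Cdkn1a* (1.84 ± 0.51) and then *Cdkn2b* (0.0735 ± 0.104) and *Cdkn2a* (0.0353 ± 0.04997), which overlap. The order was the same in the control stomach, where *Cdkn2d* (38.8 ± 1.61) and *Cdkn1b* (36.9 ± 2.48) again differed by less than their spread.

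In the KO stomach *Cdkn2a* moved from the last to the second place, at 105 ± 9.80 TPM, ahead of *Cdkn2c* at 55.6 ± 10.6. In the KO intestine *Cdkn1b* (39.98 ± 3.35 TPM), *Cdkn2c* (36.9 ± 12.4), *Cdkn2a* (34.0 ± 11.2) and *Cdkn2d* (34.0 ± 5.08) overlapped and had no clear order. Without *Cdkn1c*, the other 6 genes summed to 93.0 ± 8.05 TPM in the control intestine and 157 ± 30.3 in the KO intestine, and to 94.4 ± 3.79 and 264 ± 19.9 in the stomach.

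**Figure D2:**
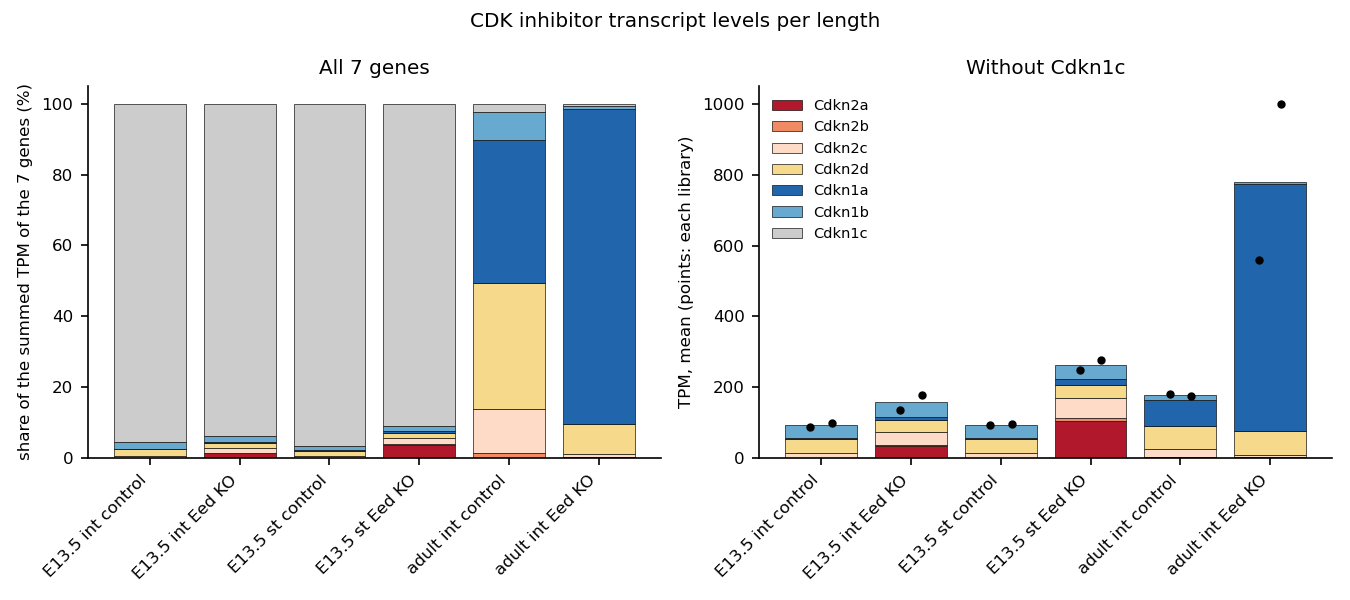
Left, share of the summed TPM of the 7 inhibitors taken by each gene in the 6 groups, in percent. Right, stacked mean TPM of the 6 genes other than *Cdkn1c*, with the sum in each library as points. In the embryo *Cdkn1c* takes 91.1% to 96.5% of the sum, and in the adult it takes 2.48% in the controls and 0.707% in the KO.

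Differences between the organs were read within each genotype. These comparisons use the same embryonic libraries as those above. In control cells none of the 7 passed both thresholds, against 1.68% of all genes called higher and 3.39% called lower in the intestine than in the stomach (edgeR; at an unadjusted p under 0.05, *Cdkn1a* and *Cdkn1c* were lower). *Cdkn1a* was lower in the control intestine in both libraries (1.66 and 1.08 against 3.01 and 3.98 CPM, log2 difference -1.34, SE 0.34, adjusted p = 0.0633), and *Cdkn1c* likewise (log2 difference -0.36, SE 0.09, adjusted p = 0.0606). With the libraries of a number paired across organs as a replicate block, *Cdkn1a* passed (-1.34, adjusted p = 0.0130), as it did with DESeq2 (-1.34, adjusted p = 0.00403). Endothelial markers were called higher in the control intestine for 4 of 6 (median log2 difference 2.15), with summed levels of 15.3 to 19.4 CPM against 14.4 to 15.2, and their part in these values was not tested.

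In *Eed* KO cells *Cdkn2a* was lower in the intestine than in the stomach. Its 36.4 and 39.9 CPM in the stomach stood against 10.3 and 15.8 in the intestine (log2 difference -1.55, SE 0.27, edgeR adjusted p = 0.0170), where 1.46% of all genes were called higher and 2.94% lower in the intestine. *Cdkn2b* had the same direction (1.16 and 2.17 against 3.11 and 4.28 CPM, log2 difference -1.15, SE 0.51, adjusted p = 0.267) and passed only with the replicate block (-1.18, adjusted p = 0.0145). Without either KO stomach library the *Cdkn2a* call was lost (log2 difference -1.61 and -1.48). It was also lost on the spike-in scale, where edgeR gave an adjusted p of 0.868. That p is for the difference before the shift of the median of all genes was subtracted, and the difference after it was -1.46. Smooth muscle markers moved in this comparison too, with 4 of 6 called higher in the KO intestine (median log2 difference 1.24, summed levels 3243 to 5520 CPM against 1820 to 2059), and their part was not tested. The difference of the KO effect between the organs did not pass for any of the 7 (adjusted p from 0.926 to 1, edgeR interaction contrast with a threshold of 0.2; *Cdkn2a* -0.84, SE 2.37), against 0.191% of genes higher and 0.271% lower. None of the 7 had an unadjusted p under 0.05 there (0 of 7), nor was any called with DESeq2, and the *Cdkn2a* control counts of 0 to 2 leave its organ difference in the controls unmeasured.

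Accessibility was read as broad peaks within 1000 bp of a start. All 7 genes had such a peak in each of the 4 lists, as did 68.9% of 17948 genes in the control intestine, 70.7% in the KO intestine, 69.5% in the control stomach and 70.7% in the KO stomach. Each list is 1 pool of replicates, so a difference between lists has no replicate check here. The study itself tested ATAC read counts of the replicates. It reported *Cdkn2b* and *Hoxb9* as the only genes of the intestine that changed in accessibility as well as expression. A peak is given with its fold enrichment over the MACS2 background, which the authors obtained together with a -log10 q.

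The p16Ink4a start of *Cdkn2a* had the largest ratio of fold enrichment between KO and control among the members in both organs. It was 3.55 in the control and 5.28 in the KO intestine, and 4.51 in the control and 7.38 in the KO stomach. The peak was 481 bp wide in the control and 1152 bp in the KO intestine (chr4:89281978-89283129), and 208 bp and 1486 bp in the stomach (chr4:89281615-89283100). The intestine ratio was 1.49 and the stomach ratio 1.64, and 0.481% and 0.390% of the 14761 and 14878 starts with a peak in both lists had a ratio at least as high. The median ratio of those starts was 0.954 and 0.991.

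At the *Cdkn2b* start the fold enrichment was 7.43 in the control and 8.77 in the KO intestine, and 6.33 and 8.91 in the stomach, with ratios of 1.18 and 1.41 (4.36% and 1.32% of starts at least as high). The p19Arf start was accessible in all lists and changed less, from 5.79 to 6.14 in the intestine and from 4.93 to 5.77 in the stomach. Over the interval from 10 kb beyond *Cdkn2a* to 10 kb beyond *Cdkn2b* (chr4:89264471-89321032), peaks covered 5166 bp in the control and 9120 bp in the KO intestine, and 6478 bp and 9961 bp in the stomach. Whole lists covered 73.8 and 86.3 Mb in the intestine and 80.4 and 87.7 Mb in the stomach. A peak about 46.4 kb downstream of the *Cdkn2b* start, beyond *Cdkn2a*, crossed the edge of the interval in both KO lists (fold enrichment 5.13 in the intestine, 4.38 in the stomach). No control peak reached into the interval there. A control peak lying wholly beyond the edge would not have been seen. A peak upstream of *Cdkn2b* (chr4:89313597-89313738, fold enrichment 6.998) was only in the control stomach list. The number of peaks in the interval was 7 in each control list and 6 in each KO list, so the wider cover of the KO lists came with fewer peaks.

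**Figure D3:**
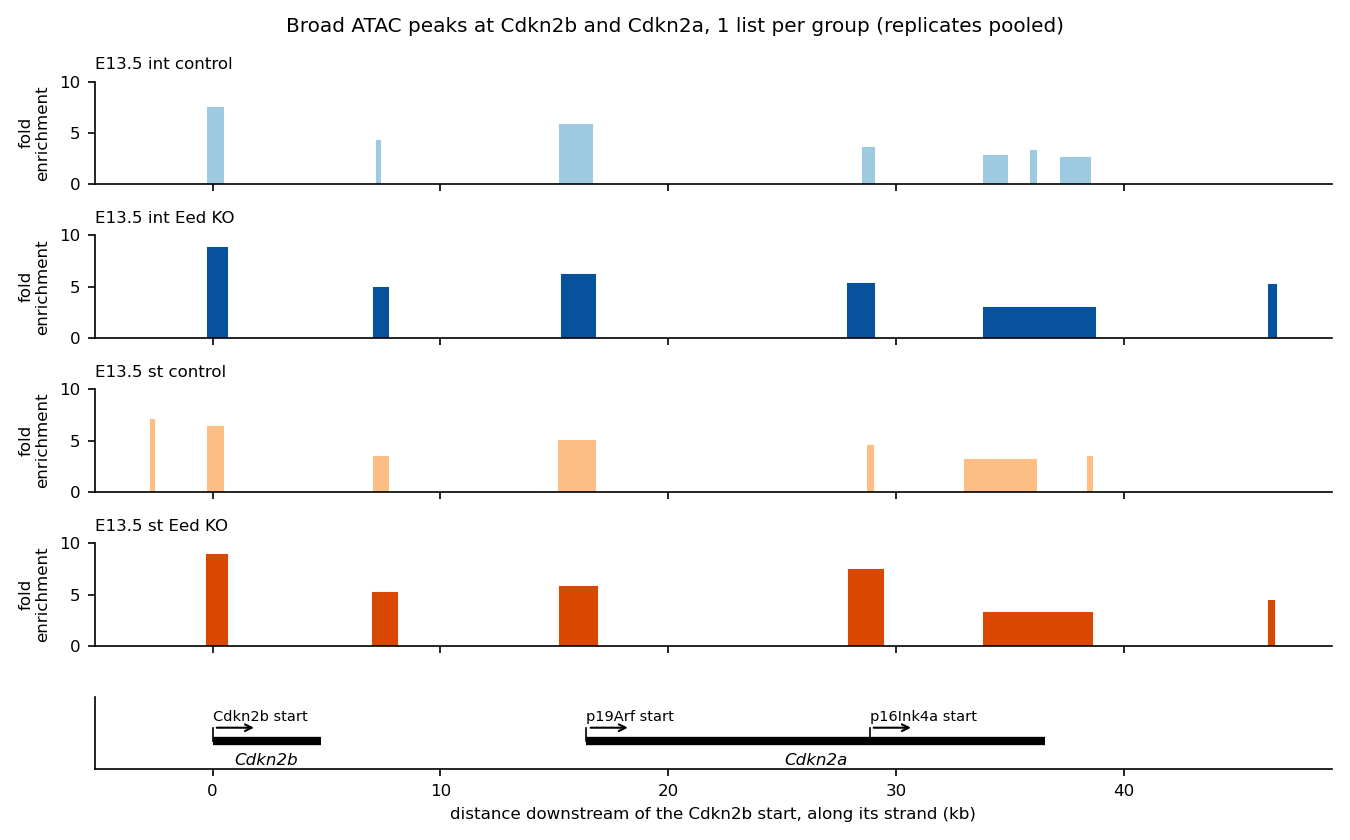
Broad ATAC peaks across *Cdkn2b* and *Cdkn2a* in the 4 embryonic lists, as fold enrichment against distance in kb from the *Cdkn2b* start, with gene extents and starts at the bottom. The peak at the p16Ink4a start is 481 bp and 208 bp wide in the control lists and 1152 bp and 1486 bp wide in the KO lists.

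Fold enrichment at the starts of the other members differed little. At *Cdkn2c* a single peak lay within 1000 bp of both starts. It was at 5.92 in the control and 5.01 in the KO intestine and at 5.71 and 5.05 in the stomach. The KO peaks covered the downstream start (chr4:109665372), which the control peaks did not reach. Peak width was 1716 bp in the control and 2020 bp in the KO intestine, and 1723 bp and 2037 bp in the stomach. Fold enrichment, a mean over the broad region, was thus lower in the wider KO peaks while *Cdkn2c* RNA was higher. At *Cdkn1a* the downstream start had an intestinal peak of 5.49 and 5.34 and a stomach peak of 5.13 and 5.19, control before KO. The upstream *Cdkn1a* start, whose window holds the p53 element, had no peak within 1000 bp in any list. In the same order, intestine first, *Cdkn2d* had 7.94 and 8.12, then 8.08 and 7.74. *Cdkn1b* had 5.47 and 4.64, then 5.58 and 5.13, and *Cdkn1c* had 4.01 and 4.30, then 5.57 and 5.81.

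Genes with a start within 250 kb were read for changes along the chromosome. Their counts stand beside the 2.38% of all genes called higher in the KO intestine and 4.84% in the KO stomach. Near *Cdkn2a*, 2 of 12 neighbours were tested in the embryo and only *Cdkn2b* was called, while *Mtap*, 158 kb away, was at a log2 fold change of -0.03 in the intestine and -0.13 in the stomach. In the intestine *Phlda2*, an imprinted growth regulator near *Cdkn1c*, was higher (0.90 and 1.08 CPM in controls, 2.93 and 2.43 in the KO, log2 fold change 1.44, edgeR adjusted p = 0.0452) as 1 of 7 tested neighbours of *Cdkn1c*. No tested neighbour of *Cdkn1a*, *Cdkn1b*, *Cdkn2c* or *Cdkn2d* was called in the intestine, and in the stomach 1 of 8 of *Cdkn1a* (*4930539E08Rik*), 1 of 3 of *Cdkn2c* (*9630013D21Rik*) and 1 of 16 of *Cdkn2d* (*S1pr5*) was higher. Of 13 tested genes of the Kcnq1 and H19 imprinted domain, *Phlda2* alone was called in the intestine and none in the stomach (3 of 13 at an unadjusted p under 0.05, edgeR).

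As a description over the 8 embryonic libraries, the genes with the levels most like *Cdkn2a* were *Vax2* (Pearson r of log2(CPM + 1) = 1.000), *Hoxb13* (0.999) and *Foxd2* (0.998), all developmental transcription factors. Those of *Cdkn2b* were *Tbx5*, *Dmrta2* and *Scrt1* (0.995 to 0.996), those of *Cdkn2c* *Entpd2*, *Cpeb4* and *Dlgap3* (0.994 to 0.995) and those of *Cdkn1a* *Prrt4*, *Mpped1* and *Ism2* (0.987 to 0.988). *Cdkn2d* was nearest to *C2cd5*, *Rpn1* and *Rabepk* (0.924 to 0.993), *Cdkn1b* to *Ap5m1*, *Tmbim4* and *Slc30a9* (0.944 to 0.950) and *Cdkn1c* to *Met*, *Ankrd45* and *Adck4* (0.971 to 0.982). The 8 points share genotype groups and preparation. Among the members, *Cdkn2a* had r = 0.984 with *Cdkn2b*, 0.969 with *Cdkn2c* and 0.903 with *Cdkn1a*, and -0.733 with *Cdkn2d*.

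Genes around the inhibitors were read from lists of cell cycle, p53 and regulator genes. Of 19 genes of the p53 pathway, 2 were called higher in the KO intestine (2.38% of all genes) and 7 in the KO stomach (4.84% of all genes), and none lower. *Pmaip1*, which encodes the pro-apoptotic BH3 protein Noxa, was at 0.197 and 0.202 CPM in the control and 2.37 and 2.60 in the KO intestine (log2 fold change 3.62, edgeR adjusted p = 9.43e-04), and at 0.551 and 0.535 against 10.4 and 10.3 in the stomach (4.24, adjusted p = 1.64e-04). *Eda2r*, a receptor of the TNF receptor family, rose by 2.19 and 3.46 on the log2 scale (adjusted p = 0.00270 and 2.60e-04). In the stomach *Trp53inp1* (1.37, adjusted p = 9.09e-04) and *Ccng1* (1.12, adjusted p = 9.28e-04) rose as well, with *Sesn2*, *Zmat3* and *Perp*. *Trp53* itself was at log2 fold changes of -0.02 and 0.01 and *Mdm2* at -0.08 and 0.05, neither called. The list's median was 0.41 in the intestine and 0.74 in the stomach.

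Proliferation genes were mostly slightly lower in the KO, with only 1 of 20 above a log2 fold change of 0 in the intestine and 1 of 20 in the stomach. None of 20 was called in the KO intestine (edgeR, with 5 of 20 below an unadjusted p of 0.05), where their median log2 fold change was -0.22. In the KO stomach none passed the 2-fold rule, but 8 of 20 were lower by adjusted p alone, against 1.95% of all genes, among them *Mcm5* (-0.46, adjusted p = 0.0185), *Rrm2* (-0.48, adjusted p = 0.0192), *Tyms* (-0.48, adjusted p = 0.0200) and *Cdc20* (-0.55, adjusted p = 0.0253), which act in DNA replication, nucleotide supply and mitotic exit. The list's median there was -0.39, and 13 of 20 had an unadjusted p under 0.05 (edgeR). Of 13 cyclins and CDKs, *Ccnd1*, the D-type cyclin whose kinases the INK4 proteins bind, was higher in both organs (intestine, 90.6 and 56.6 against 214 and 261 CPM, log2 fold change 1.69, adjusted p = 0.0118, and stomach, 1.01, adjusted p = 0.0369), while *Ccne2* (-0.62, adjusted p = 0.0197) and *Ccnb1* (-0.42, adjusted p = 0.0398) were lower in the stomach by less than 2-fold. Of 11 RB and E2F genes none was called in the intestine (1 of 11 at an unadjusted p under 0.05, edgeR) and *E2f3* alone passed by adjusted p in the stomach (-0.46, adjusted p = 0.0328).

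Among 30 regulators of the inhibitors, 2 were higher and 1 lower in the KO intestine, and 4 were higher and 1 lower in the KO stomach, the lower one being *Eed* in both, beside the same shares of all genes called higher. *Bmi1*, a Polycomb repressor of the *Cdkn2a* locus, rose in both organs (intestine 1.34, stomach 1.2 on the log2 scale, edgeR adjusted p = 0.00260 and 0.00164), and *Klf4*, a transcription factor that acts on *Cdkn1a*, rose by 1.22 and 1.41 (adjusted p = 0.00954 and 0.00234). *Tbx2* (1.58, adjusted p = 0.0105) and *Tbx3* (1.80, adjusted p = 0.00866), T-box repressors of the same locus, rose in the stomach. Of 16 senescence-associated genes, 10 were tested in the embryo and *Igfbp3* was higher in the KO intestine (1.6, adjusted p = 0.0261) and *Cxcl1* (4.06, adjusted p = 0.0174) and *Igfbp5* (1.09, adjusted p = 0.0214) in the KO stomach, while *Il6*, *Il1a*, *Mmp3* and *Mmp13* had no count in any embryonic library.

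**Figure D4:**
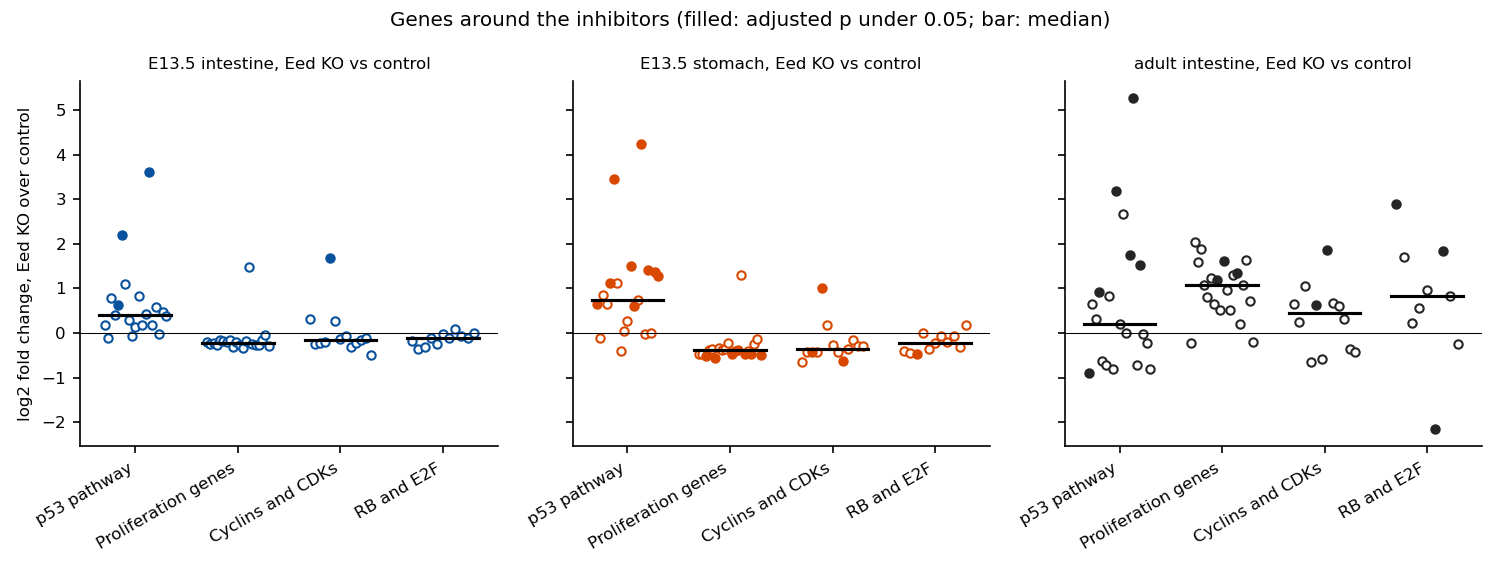
Log2 fold change of *Eed* KO over control for each tested gene of 4 lists in the embryonic intestine, the embryonic stomach and the adult intestine, with filled points for an adjusted p under 0.05 and a bar at the list's median. The median of the p53 list is 0.41, 0.74 and 0.20, and that of the proliferation list is -0.22, -0.39 and 1.07.

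In the adult intestine 6 of the 7 inhibitors passed the filter on low counts. *Cdkn1a* was higher and *Cdkn2c* lower in the libraries labelled KO, against 12.3% of 15039 genes called higher and 7.23% lower, and *Cdkn2a*, which the filter left out, stayed near 0. The median log2 fold change of the 6 was 0.58, against 0.00 for all genes. The KO libraries also differ in the cell markers given above, with macrophage and leukocyte markers at 18504 to 18801 CPM against 706 to 916 and mesenchyme markers (5 of 8 tested lower) at 3487 to 4987 against 11411 to 11916, and the part of these in the results below was not tested.

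*Cdkn1a* was at 66.6 and 61.4 CPM in the adult controls and at 590 and 1232 in the KO. The KO libraries differed widely between themselves and both lay far above the controls. The log2 fold change was 3.83 (SE 0.37, edgeR adjusted p = 7.09e-04), and the call held in all 9 alternatives (3.20 to 4.24). Per length, *Cdkn1a* took 40.3% of the summed TPM of the 7 genes in the adult controls and 88.3% in the KO.

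*Cdkn2c* was at 23.7 and 23.5 CPM in the adult controls and at 11.3 and 7.50 in the KO. Both KO libraries were below both controls, opposite in direction to the embryo (log2 fold change -1.33, SE 0.29, edgeR adjusted p = 0.0180). Without KO replicate 2 the call was lost (-1.06, adjusted p = 0.0546).

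*Cdkn2a* had 0 and 0 counts in the adult controls and 4 and 3 in the KO, and it was not tested. The ratio was 2.85 with the controls set at the floor of 3 counts over the group, and its lower exact 95% counting limit, from 7 counts against 0, was 1.76. *Cdkn2b* had 14 and 27 counts in the controls and 4 and 50 in the KO, so the KO libraries lay on both sides of the controls (log2 fold change 0.57, SE 0.96, edgeR adjusted p = 0.710). *Cdkn2d* was at 29.9 and 35.0 CPM against 40.5 and 56.8 in the KO (0.59, SE 0.24, adjusted p = 0.121).

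*Cdkn1b* was at 29.6 and 19.8 CPM against 16.2 and 18.5 in the adult KO (-0.51, SE 0.28, edgeR adjusted p = 0.231). *Cdkn1c* was at 3.88 and 2.94 CPM in the adult controls and 3.71 and 9.35 in the KO, which overlap (0.94, SE 0.54, adjusted p = 0.255). The level of *Cdkn1c* per length was 4.54 ± 0.97 TPM in the adult controls against 2007 ± 25.4 in the control embryonic intestine, but age, Cre line and library kit differ together between those groups and cannot be told apart.

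**Figure D5:**
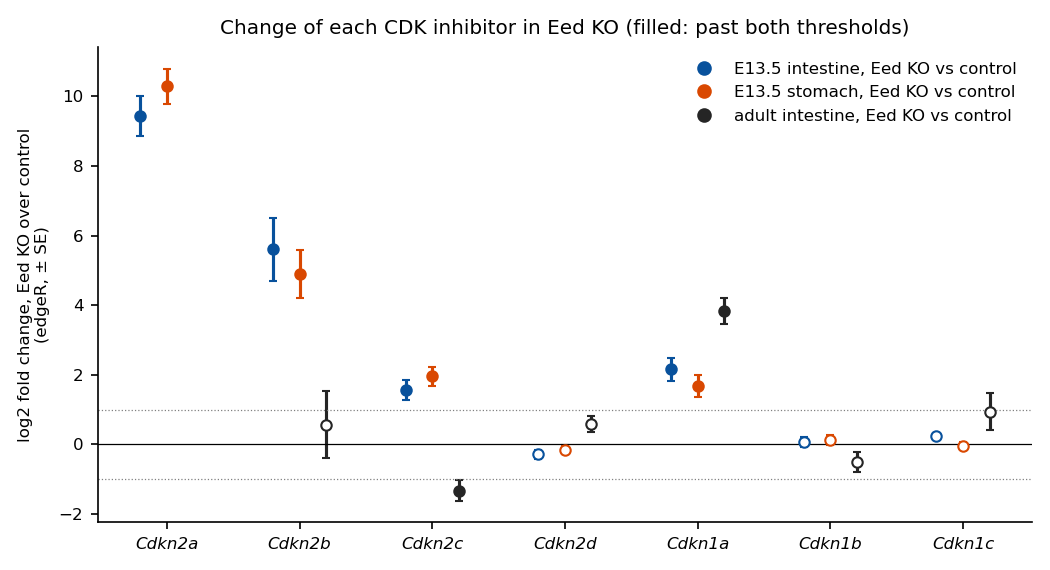
Log2 fold change of *Eed* KO over control (± SE, edgeR) of each inhibitor in the 2 embryonic organs and the adult intestine, with filled points past both thresholds and dotted lines at a 2-fold change. *Cdkn2c* is at 1.55 and 1.95 in the embryo and -1.33 in the adult, *Cdkn1a* is above 1 in all comparisons, and the fitted values of *Cdkn2a* and *Cdkn2b* depend on control counts near 0.

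The difference between the adult and embryonic effects was tested in the intestine in a fit of all 12 libraries. It passed for *Cdkn2c* (log2 difference of the effects, adult minus embryonic, -2.90, SE 0.42, edgeR adjusted p = 0.00155), against 6.91% of 19388 genes higher and 6.82% lower. It missed the threshold for *Cdkn1a* (1.67, SE 0.54, adjusted p = 0.0583), *Cdkn2b* (-4.97, SE 1.61, adjusted p = 0.0602) and *Cdkn2d* (0.86, SE 0.27, adjusted p = 0.0527), and with no filter on low counts *Cdkn1a* and *Cdkn2b* passed (adjusted p = 3.46e-04 and 8.25e-04). The embryonic Cre was active in *Bapx1* cells and the adult Cre in *Pdgfrβ* cells, so age and the cells targeted cannot be told apart.

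The lists in the adult are to be read beside the 12.3% of all genes called higher and 7.23% called lower. There, 4 of 19 p53 genes were called higher, *Pmaip1* (10.3 and 11.6 against 469 and 379 CPM, log2 fold change 5.27, edgeR adjusted p = 1.24e-04), *Mdm2* (29.5 and 21.4 against 179 and 283, 3.18, adjusted p = 6.39e-04), *Plk2* (1.76, adjusted p = 0.00390) and *Sesn2* (1.53, adjusted p = 0.0181), with none called lower. *Eda2r* and *Ccng1*, which rose in the embryonic stomach, were at -0.71 and -0.63 in the adult and were not called. Of 20 proliferation genes 3 were higher (*Pcna* 1.36, *Mcm5* 1.61 and *Mcm3* 1.19) and none lower, a share near that of all genes. In this list 18 of 20 had a log2 fold change above 0, with a median of 1.07 against 0.00 for all genes. Summed levels were 742 and 417 CPM in the KO libraries, which differed widely, and 280 and 317 in the controls. Of 16 senescence-associated genes 10 were called higher, among them *Gdf15* (4.06), *Il1a* (4.05), *Mmp13* (6.48) and *Mmp12* (5.08, all adjusted p of 2.03e-04 or below), and 2 lower, *Igfbp3* and *Mmp3*. *Il1a* and *Mmp12* are made by macrophages, whose markers rose in the same libraries, and the part of those cells in these values was not tested. Of 30 regulators 28 were tested, and 6 were higher and none lower past 2-fold, among them *Id2* (2.91), *Myc* (1.83) and *Ets2* (1.13). Of 11 RB and E2F genes 9 were tested, and *E2f1* (2.89) and *Rb1* (1.84) were higher and *E2f6* (-2.16) lower. Of 13 cyclins and CDKs 12 were tested, and *Ccne1* (1.86) was the 1 called higher, a share below that of all genes. Among genes within 250 kb, *Mtap* was lower (-1.21, edgeR adjusted p = 0.0174) as 1 of 2 tested neighbours of *Cdkn2a*. Higher were 1 of 7 tested neighbours of *Cdkn1a* (*Pi16*) and 3 of 9 of *Cdkn1b* (*Apold1*, *Gprc5a* and *Hebp1*). So were 1 of 8 of *Cdkn1c* (*Tnfrsf26*) and 1 of 14 of *Cdkn2d* (*AB124611*).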

How the data were processed

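RNA-seq reads had been trimmed with Trimmomatic 0.32 and aligned with STAR 2.5.1b to GRCm38 with GENCODE vM4 by the authors, who deposited raw featureCounts counts per gene, made without strand for the adult per the file headers. The strand setting of the embryonic counts is not given in the sources used here. ATAC-seq reads, aligned with BWA-mem 0.7.8, were pooled over replicates by the authors, and the deposited MACS2 2.1.2 broad peaks give a fold enrichment (ratio) and a -log10 q each.

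The 7 members and all gene lists were chosen with earlier results of these data known. Genes with enough counts were tested by edgeR 4.0.16 (TMM scaling, quasi-likelihood, Benjamini-Hochberg adjustment over all genes tested; R 4.3.3), in 1 fit of the 8 embryonic, 1 of the 4 adult and 1 of all 12 libraries. A call needs an adjusted p under 0.05 and a 2-fold change, or an adjusted p under 0.2 for the organ by genotype contrast. CPM use TMM library sizes and TPM the gene lengths of the annotation. All members were named, with called neighbours within 250 kb, the 3 genes most like each member, and from each list up to 4 genes with the smallest p. Other list genes (such as *Trp53*, *Mdm2* in the embryo and the further called ones) were named after their values were seen. INK4 proteins were not compared. Likeness was Pearson's r of log2(CPM + 1). Ratios of counts near 0 carry exact binomial intervals. The fits were tested on simulated counts. Depth, given with the samples, limits the values of genes near 0 counts.

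Same-numbered embryonic libraries deviated together (r = 0.37 between control organs and 0.748 between KO organs). The study dissected both organs of the same animals, but the labels do not say that a number marks them. Adult numbers did not pair (r = -0.0823). The alternatives were a spike-in factor, spike-in scaling, DESeq2 1.42.0, its size factors in edgeR, no filter, a replicate block and leaving out each library. The authors' own fits used spike-in RNA with RUV-seq and DESeq2.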

Additional observations from a re-analysis of the deposited data

Results flagged for a closer look

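*Cdkn2c* stood out because its response to *Eed* loss differed between ages in the intestine by a test of the difference itself. It was higher in the embryonic KO (9.22 and 12.96 CPM in the controls, 25.5 and 39.4 in the KO) and lower in the adult libraries labelled KO (23.7 and 23.5 in the controls, 11.3 and 7.50 in the KO). The log2 difference of the effects, adult minus embryonic, was -2.90 (SE 0.42, edgeR adjusted p = 0.00155), and it passed in all 12 alternatives run. Among these, the spike-in scale used the adjusted p from before the median shift of all genes (-2.20) was subtracted. Age, Cre line and library kit cannot be told apart, *Eed* itself was not called lower in the adult, and the part of the other cell types whose markers rose there was not tested.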

How the results depend on the processing

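The number of inhibitors called was 4 in each embryonic organ, and 1 with 1 spike-in factor as covariate. Leaving out 1 library gave 1 to 4 in the intestine and 2 to 4 in the stomach. Between control organs it was 0, and 1 (*Cdkn1a*) with the spike-in factor, DESeq2, no filter or the replicate block (0 to 0 without single libraries). Between KO organs it was 1, 2 with the replicate block and 0 on the spike-in scale (0 to 1 without single libraries). The block changed no other call of a member. In the adult it was 2, and 1 to 2 without single libraries, where 1 followed from leaving out KO replicate 2. For the age contrast it was 1, 3 with DESeq2, 3 without a filter, 2 on the spike-in scale, and 1 to 4 without single libraries. The count of promoter peaks (28 of 28) and the organ by genotype count (0) held in every alternative run. The spike-in scale shifted the KO against control median over all genes by 1.85 (intestine) and 2.39 (stomach) on the log2 scale. It shifted the median of the age contrast by -2.20. Member calls on that scale used the fold change after this shift was subtracted but the adjusted p of the test before it.

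Between KO organs *Cdkn1b* turned to -0.034 with the spike-in factor and *Cdkn2d* to 0.023 on the spike-in scale. Leaving out single libraries spanned 0 for *Cdkn1b* in the intestine (-0.064 to 0.18), stomach (-0.051 to 0.26), control organs (-0.0029 to 0.12), KO organs (-0.14 to 0.17) and organ by genotype contrast (-0.20 to 0.11). It did so between control organs for *Cdkn2c* (-0.38 to 0.19), *Cdkn2a* (-3.13 to 2.43) and *Cdkn2b* (-5.19 to 0.083), between KO organs for *Cdkn2d* (-0.16 to 0.071), in the organ by genotype contrast for *Cdkn2a* (-3.98 to 1.59) and *Cdkn2b* (-1.23 to 4.03), for *Cdkn2b* in the adult (-1.84 to 1.38) and for *Cdkn1c* by age (-0.13 to 1.22). None of these passed the test with all libraries, and the cause was not tested.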
